A study of Mus musculus with 18 samples.

Results

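The carboxylesterase genes of the mouse liver were followed in 18 livers. The 10 genes Ces1b, Ces1c, Ces1d, Ces1e, Ces1f, Ces1g, Ces2a, Ces2e, Ces3a and Ces3b were chosen by their symbol in the count table, where they are 10 of 55487 genes, and 10 other Ces genes of the table were set beside them. The livers came from male C57BL/6J animals that had been on diet for 16 weeks and were fasted briefly, and each of the 3 groups held 6 mice with 1 RNA library each. The CON-GFP mice ate a purified control diet and the FPC-GFP mice a high-fat diet enriched in fructose, palmitate and cholesterol, with fructose and glucose in the drinking water. Both of these groups carried an adeno-associated virus (AAV8) that expresses GFP. The FPC-LIPA mice ate the FPC diet and carried the same kind of vector with human LIPA, the gene of lysosomal acid lipase, in place of GFP. The vector was given to young adult mice shortly before the diets began. It uses the TBG promoter, which drives the transgene in hepatocytes, so the other cells of the liver are not its target, and no group without a vector and no group with LIPA on the control diet was analysed here.

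Carboxylesterases are serine hydrolases that cleave esters of lipids and of foreign compounds, mostly in the lumen of the endoplasmic reticulum. The hepatocyte is among their main sources. Enzymes of the CES1 class favour substrates with a large acyl group and a small alcohol group, those of the CES2 class the reverse, and both classes activate or inactivate many ester drugs. Several mouse members also hydrolyse stored triglyceride, and in this way they bear on the fat that the liver keeps or exports as very low density lipoprotein. The mouse has many more of these genes than the human, in clusters that arose by repeated duplication.

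All 10 genes lie on chromosome 8 of GRCm38 in the GENCODE M21 annotation. The 6 Ces1 genes are on the minus strand, from Ces1b (ENSMUSG00000078964, chr8:93056728-93080017) to Ces1g (ENSMUSG00000057074, chr8:93302369-93337308). The Ces2 and Ces3 genes follow on the plus strand, with Ces2a (ENSMUSG00000055730, chr8:104734003-104741634), Ces2e (ENSMUSG00000031886, chr8:104926260-104934672), Ces3a (ENSMUSG00000069922, chr8:105048601-105058413) and Ces3b (ENSMUSG00000062181, chr8:105083753-105093929). Their coding sequences were from 1662 to 1713 bases long. Ces3a and Ces3b were the closest pair, with 95.3% of 1713 aligned coding bases the same, before Ces1b and Ces1c with 91.1%. The 17 pairs of the same subfamily had a median identity of 78.4%, and the 28 pairs of different subfamilies lay between 62.9% and 65.3%.

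The kinship is shown by a 60-base window of exon 5, the stretch of this length with the most bases in common, read 5′ to 3′ on the coding strand of GRCm38. Of its bases 34 are the same in all 10 genes and are in lower case, and the 26 that vary are in capitals.
Ces1b: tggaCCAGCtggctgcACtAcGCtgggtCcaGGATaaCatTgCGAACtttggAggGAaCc
Ces1c: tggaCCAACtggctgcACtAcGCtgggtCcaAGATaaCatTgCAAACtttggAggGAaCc
Ces1d: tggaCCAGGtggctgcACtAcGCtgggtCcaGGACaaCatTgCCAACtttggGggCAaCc
Ces1e: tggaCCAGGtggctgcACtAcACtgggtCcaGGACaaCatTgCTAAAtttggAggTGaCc
Ces1f: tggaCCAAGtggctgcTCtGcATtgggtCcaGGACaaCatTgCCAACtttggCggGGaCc
Ces1g: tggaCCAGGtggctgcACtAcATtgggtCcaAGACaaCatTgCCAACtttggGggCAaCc
Ces2a: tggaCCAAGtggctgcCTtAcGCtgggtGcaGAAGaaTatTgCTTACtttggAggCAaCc
Ces2e: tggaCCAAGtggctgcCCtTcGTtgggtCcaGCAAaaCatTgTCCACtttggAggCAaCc
Ces3a: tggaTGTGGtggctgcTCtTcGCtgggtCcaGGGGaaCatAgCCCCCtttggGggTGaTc
Ces3b: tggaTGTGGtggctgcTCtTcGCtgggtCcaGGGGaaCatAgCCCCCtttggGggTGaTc
The window of Ces3b is at chr8:105086596-105086655, and it is the same as that of Ces3a in every base. Ces1d and Ces1g differ in 3 bases, as do Ces1b and Ces1c. Such likeness can mix the counts of neighbours. Of all windows of 150 bases in the main transcript, 2.37% of those of Ces3a and 2.0% of those of Ces3b are also found in the other Ces3 gene, and 4.03% of those of Ces2a in the gene Gm7208. No window of 150 bases of the other 7 genes was found in another gene. With windows of 75 bases the shares rose to 18.26% for Ces3a, 15.37% for Ces3b and 14.85% for Ces2a, and Ces1b and Ces1c shared some windows too. How the authors' counting treated such reads is not given in the sources used here, so the split between Ces3a and Ces3b is uncertain to that extent.

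Total counts per library lay between 16632146 and 37739301, and the 10 genes held from 85249 to 295443 of them. The summed level of 10 hepatocyte genes such as Alb and Ttr was between 67500 and 128100 CPM in every liver, and none of the 10 was near 0. CPM are counts per unit of library size, scaled by TMM. Mouse Lipa was at 242.9 ± 33.9, 336.4 ± 59.3 and 300.4 ± 44.8 CPM (SD, n = 6) over the control, FPC-GFP and FPC-LIPA livers, and it does not check the vector, whose LIPA is human. FPC-LIPA 36, 37 and 39 stood apart, since ribosomal protein genes took more of their counts. The share over the 6 FPC-LIPA livers reached from 2.199% to 8.299%, beside 1.46% to 1.828% in FPC-GFP and 1.778% to 2.582% in CON-GFP. Most libraries have a sample sheet number from 55 to 68. Other numbers belong to CON-GFP 1, CON-GFP 2, FPC-GFP 20 and FPC-LIPA 37, too few to give values of their own. Values within numbers 55 to 68 are therefore set beside some of the pooled ones.

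The levels of the genes can be set in order when CPM is divided by the length of all exons in kilobases. In CON-GFP the order began with Ces1c at 925 ± 130 CPM per kb, Ces3a at 853 ± 152 and Ces1d at 673 ± 229 (SD, n = 6). These 3 genes were the highest in each group. In CON-GFP neighbours among the 3 differed by less than the sum of their SDs, a rule that does not pair the genes by liver. Liver by liver, Ces1c was above Ces1d in every CON-GFP liver. Ces3a was above Ces1c in CON-GFP 3 and CON-GFP 7 and below Ces1d in CON-GFP 8, so its place there is not resolved. Then came a step down to Ces3b at 143.74 ± 28.46, followed by Ces1f, Ces1g, Ces2e and Ces1e, the last at 114.53 ± 24.95, and none of these neighbours differed beyond its spread. Ces2a at 76.56 ± 19.07 and Ces1b at 41.67 ± 9.17 CPM per kb closed the order. When the length of the main mRNA was used in place of all exons, Ces1f rose above Ces3b in CON-GFP and the first 3 places were the same.

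**Figure D1:**
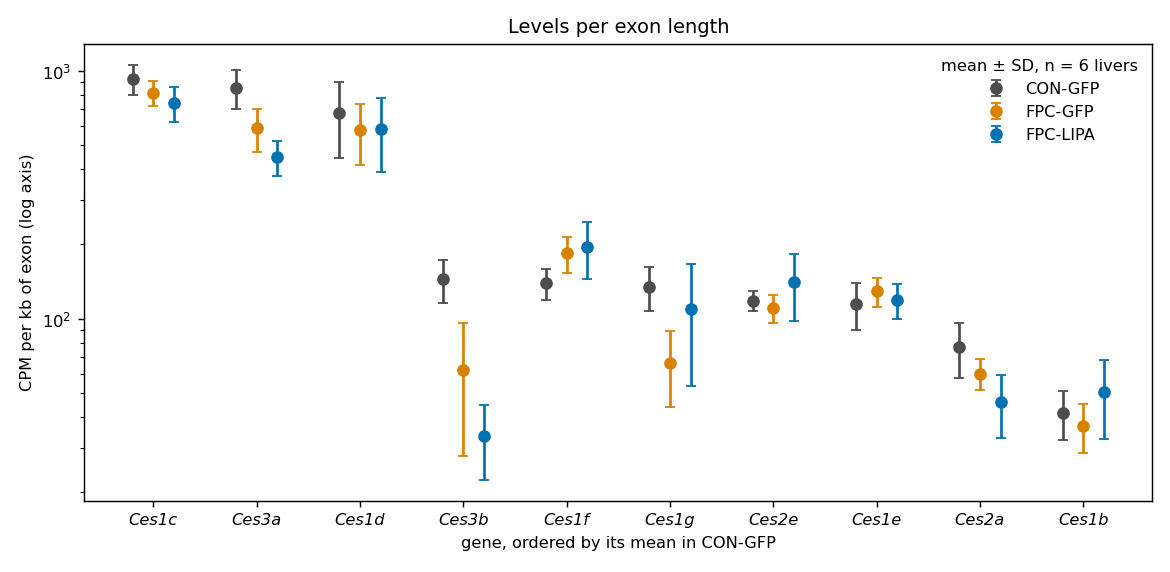
Level of each carboxylesterase gene in CPM per kb of exon on a log axis, as mean ± SD of 6 livers per group, with genes ordered by their mean in CON-GFP. Ces1c, Ces3a and Ces1d stand above the other 7 genes in every group, and Ces3b falls from 143.74 in CON-GFP to 61.97 in FPC-GFP and 33.66 in FPC-LIPA.

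Ces1c was first and Ces2a in place 9 in each group, and other places changed, often between neighbours within their spread. In FPC-GFP the first 4 genes were Ces1c at 814.84 ± 92.46, Ces3a at 584.87 ± 114.4, Ces1d at 575.67 ± 158.42 and Ces1f at 183.0 ± 30.28 CPM per kb. In that group Ces3b was in place 8 with 61.97 ± 34.12, next to Ces1g at 66.44 ± 22.28 and Ces2a at 59.96 ± 8.55, and these neighbours did not differ beyond their spread. In FPC-LIPA it was last, with 33.66 ± 11.32 beside 46.05 ± 13.1 for Ces2a, again within the spread. Liver by liver in that group, Ces3b was above Ces2a in FPC-LIPA 39 alone. Ces1f moved up from place 5 to place 4 by exon length only, since by the length of the main mRNA it was in place 4 in each group. By exon length it had 138.89 ± 19.84 in CON-GFP, 183.0 ± 30.28 in FPC-GFP and 194.32 ± 49.92 CPM per kb in FPC-LIPA.

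The first comparison asked what the FPC diet does to liver transcripts, FPC-GFP against CON-GFP. Ces1g, a hydrolase that has been tied to hepatic triglyceride and cholesterol, was 2.04-fold lower in FPC-GFP, and Ces3b was 2.34-fold lower. Ces3a was 1.47-fold lower and Ces1f 1.31-fold higher, both below the fold minimum. A gene counted as called when the fold was 2 or more and the adjusted p under 0.05 (edgeR quasi-likelihood test, Benjamini-Hochberg over 14307 genes). By this rule 2 of the 10 genes were called, both lower, beside 7.2% of all genes tested in either direction and 2.44% called lower. At an adjusted p under 0.05 alone, 3 were lower and 1 was higher, beside 23.8% of all genes, 10.9% lower and 12.9% higher. Of 86 ribosomal protein genes tested, 65 were lower at this threshold and 0 higher. The part of this shift in the carboxylesterase values was not tested. In bulk tissue, fewer cells of a type and less RNA per cell cannot be told apart.

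Ces1g was measured at 221 to 396 CPM in CON-GFP, with a median of 322. In FPC-GFP it was at 113 to 257 CPM, with a median of 143. FPC-GFP 12 at 257 CPM was the only FPC-GFP liver above the lowest control liver, CON-GFP 3 at 221 CPM, so the groups overlapped there. The log2 fold change was -1.02 (SE 0.20, 95% interval -1.45 to -0.60, adjusted p = 0.0028, edgeR quasi-likelihood test). It lay close to the fold minimum. Within sample sheet numbers 55 to 68 it was -0.86 (adjusted p = 0.030), with library size alone in place of TMM it was -0.83 (adjusted p = 0.0061), and in both it no longer reached 2-fold. Including these, the call was lost under 7 of 19 alternatives.

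Ces3b, with Ces3a one of the pair of Ces3 genes, was measured at 262 to 470 CPM in CON-GFP, with a median of 359. In FPC-GFP it was at 54.3 to 314 CPM, with a median of 150. Among the FPC-GFP livers, 5 were below every control liver, and FPC-GFP 20 at 314 CPM was above CON-GFP 6 at 262 CPM. The log2 fold change was -1.22 (SE 0.30, 95% interval -1.86 to -0.59, adjusted p = 0.0098, edgeR quasi-likelihood test). It was called under all 19 alternatives, between -1.58, within sample sheet numbers 55 to 68, and -1.03, with library size alone. Without FPC-GFP 20, which also has a sample sheet number outside 55 to 68, it was -1.54.

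**Figure D2:**
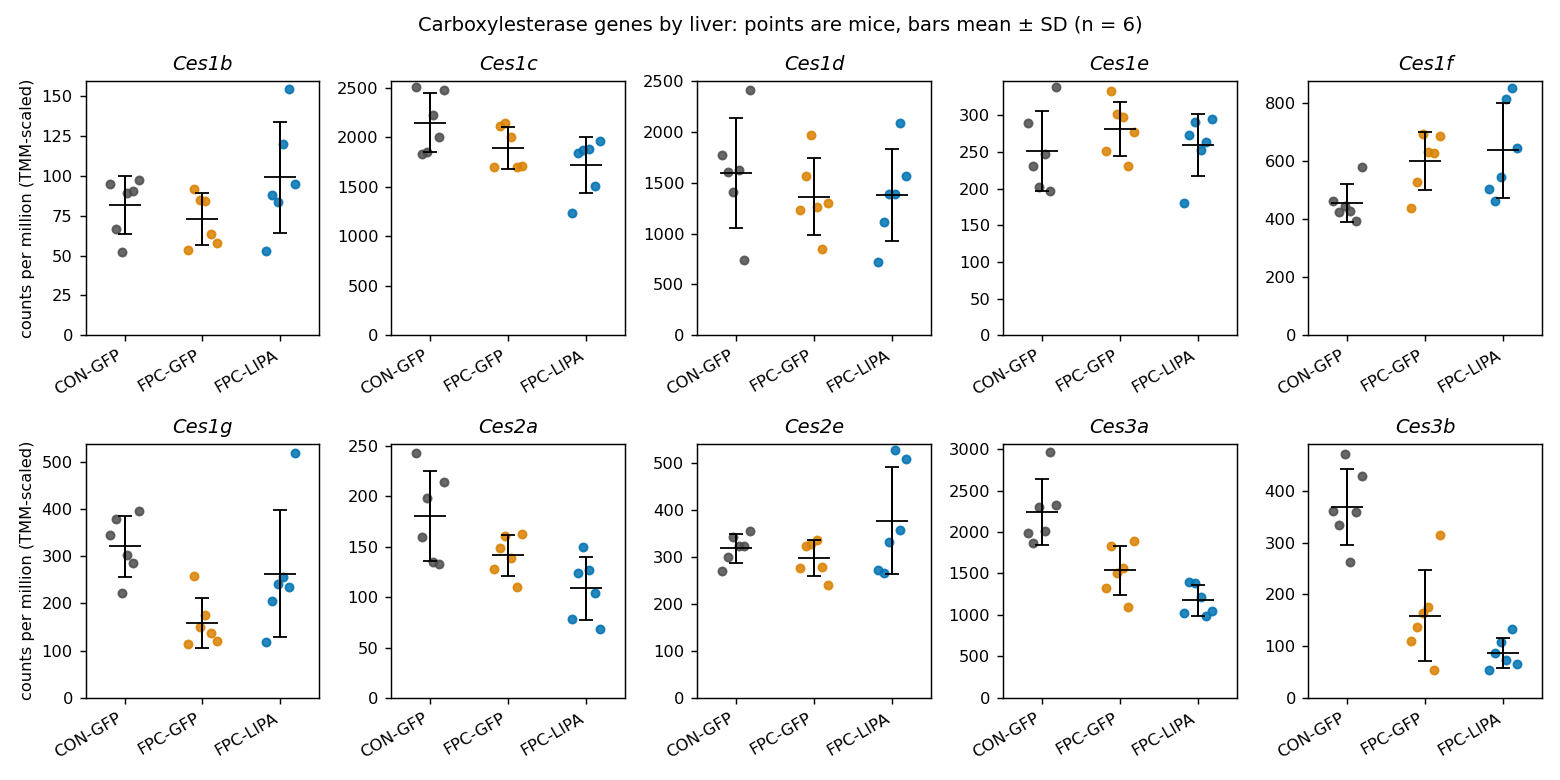
CPM of the 10 carboxylesterase genes in each of the 18 livers, with linear axes from 0. Points are mice and bars are mean ± SD of 6 livers per group. In Ces3a and Ces3b every FPC-LIPA liver lies below every CON-GFP liver, and in Ces1g FPC-LIPA 37 at 517 CPM lies far above the other 5.

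Ces3a, the abundant twin of Ces3b, was at 1872 to 2965 CPM in CON-GFP (median 2156), against 1093 to 1888 CPM in FPC-GFP (median 1541). The groups met in only 1 liver of each, FPC-GFP 20 at 1888 CPM and CON-GFP 2 at 1872 CPM. Its log2 fold change was -0.55 (SE 0.15, edgeR quasi-likelihood test, adjusted p = 0.018). The adjusted p passed 0.05 with library size alone (0.10) and with all 18 libraries in 1 fit (0.052). Within sample sheet numbers 55 to 68 the log2 fold change of Ces3a was -0.72 (edgeR quasi-likelihood test, adjusted p = 0.018). Ces1f was at 393 to 581 CPM in CON-GFP (median 438), against 438 to 693 CPM in FPC-GFP (median 630), so that 5 of the 6 FPC-GFP livers were above 5 of the 6 control livers. Its log2 fold change was 0.39 (SE 0.14, edgeR quasi-likelihood test, adjusted p = 0.049), at the edge of the threshold. Under 15 of 19 alternatives the adjusted p was not under 0.05. It lay between 0.0071, with library size alone, and 0.197, within sample sheet numbers 55 to 68.

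The other 6 genes did not pass the test in the diet comparison. Among them Ces2a, of the CES2 class, differed by -0.36 on the log2 scale (SE 0.16, adjusted p = 0.11). Its levels were 133 to 244 CPM in CON-GFP, against 111 to 162 CPM in FPC-GFP, and the groups overlapped. Ces1d, the triacylglycerol hydrolase that mobilises stored fat for lipoprotein assembly, was at 741 to 2417 CPM in CON-GFP, against 851 to 1969 CPM in FPC-GFP. The spread between mice was wide, and its log2 fold change of -0.24 had a 95% interval from -0.74 to 0.27. Ces1c, the esterase that the mouse liver secretes into plasma, had -0.19 (interval -0.46 to 0.07). Ces1b had -0.18 and Ces2e -0.11. Ces1e, the gene of egasyn, which holds β-glucuronidase in the endoplasmic reticulum, had 0.16.

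Over the 10 genes the median log2 fold change was -0.21, beside 0.01 over all genes tested, and 8 of the 10 values were negative. With library size alone the medians were -0.02 and 0.21, and Ces1b, Ces1c and Ces2e turned positive, so the sign of these small values rests on the scaling. In no gene were the groups free of overlap, beside 10.6% of all genes tested. For 8 of the 10 genes the whole 95% interval lay within a 2-fold change in either direction.

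The promoters of Ces1g and Ces3b, the pair called lower on the FPC diet, are shown as the 250 bases before the start site in RefSeq (GRCm38.p6), 5′ to 3′ on the coding strand, with matches to the motifs searched in capitals.
Ces1g, chr8:93337210-93337459, minus strand: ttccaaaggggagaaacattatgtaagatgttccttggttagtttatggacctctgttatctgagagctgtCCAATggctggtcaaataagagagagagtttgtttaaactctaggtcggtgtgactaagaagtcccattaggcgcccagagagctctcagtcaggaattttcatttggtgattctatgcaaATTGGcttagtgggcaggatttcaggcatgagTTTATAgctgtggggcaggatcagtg
Ces3b, chr8:105083505-105083754, plus strand: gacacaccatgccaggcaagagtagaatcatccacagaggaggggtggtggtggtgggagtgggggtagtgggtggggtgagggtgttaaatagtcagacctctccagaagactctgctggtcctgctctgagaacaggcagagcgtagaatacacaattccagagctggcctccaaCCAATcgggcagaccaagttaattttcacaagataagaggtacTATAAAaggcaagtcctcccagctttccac
The motifs were searched on both strands in 300 bases around the start site. TATAAA was found in Ces3b from position -30 and in Ces1g from position -26 on the opposite strand, and 14.16% of 27026 promoters hold it. CCAAT was found once in Ces3b and 2 times in Ces1g, and 37.923% of the promoters hold it. The start sites differ by annotation: in GENCODE M21 Ces1g reaches to 93337308, so the bases from 93337210 to 93337308 lie within the gene there. That stretch holds the TATAAA match of Ces1g and its CCAAT match nearer the RefSeq start site. AGGTCA, the core motif of nuclear receptors, is held by 16.04% of promoters and TTCNNNGAA, the STAT motif, by 8.466%, and neither was found in these windows. The longer DR1, DR4 and HNF1 motifs, held by 12, 3 and 2 of the promoters, were not found either. Promoters were matched for 7 of the 10 genes, all but Ces1d, Ces1f and Ces3a. A match is a description of these letters and does not show a bound site.

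The second comparison asked what LIPA changes on the FPC diet, FPC-LIPA against FPC-GFP. It shares the 6 FPC-GFP libraries with the diet comparison, so noise in these enters both. None of the 10 genes was called (edgeR quasi-likelihood test, 14620 genes), beside 11.4% of all genes, and none had an adjusted p under 0.05, beside 21.2%. The 1671 calls over all genes fell to 96 of 14736 within sample sheet numbers 55 to 68 and to 116 of 15246 without FPC-LIPA 36, 37 and 39, and with 1 library left out they numbered 856 to 2612, the fewest without FPC-LIPA 36 and the most without FPC-LIPA 33. In none were the groups free of overlap, beside 7.57%. At an unadjusted p under 0.05 there were 2, Ces3b lower and Ces1g higher. Every gene with an adjusted p under 0.05 is also under it unadjusted, so the share over all genes was at least 21.2%. The DESeq2 Wald test called 0. Without the fold minimum DESeq2 gave 1, Ces3b, with an adjusted p of 0.043, and a fit of all 18 libraries gave 2.

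Ces3b was at 54.5 to 132 CPM in FPC-LIPA, with a median of 79.3, beside 54.3 to 314 CPM and a median of 150 in FPC-GFP. Every FPC-LIPA liver lay within the range of FPC-GFP, and FPC-GFP 20 was the highest of the 12. The log2 fold change was -0.88 (SE 0.34, 95% interval -1.60 to -0.15, adjusted p = 0.072). Which FPC-GFP livers are kept matters here. Without FPC-GFP 20 the value was -0.57 (adjusted p = 0.19), and without FPC-GFP 19, the lowest of its group, it was -1.06 and passed both thresholds (adjusted p = 0.038, edgeR quasi-likelihood test). Within sample sheet numbers 55 to 68, which leave out FPC-GFP 20 and FPC-LIPA 37, it was -0.50 (adjusted p = 0.28).

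Ces1g was at 118 to 517 CPM in FPC-LIPA, with a median of 238, beside 113 to 257 CPM and a median of 143 in FPC-GFP. FPC-LIPA 37 at 517 CPM was higher than any other of the 18 livers, and FPC-LIPA 31 at 118 CPM was near the bottom of FPC-GFP. The log2 fold change was 0.73 (SE 0.31, 95% interval 0.08 to 1.38, adjusted p = 0.093, edgeR quasi-likelihood test). Without FPC-LIPA 37 it was 0.41 (adjusted p = 0.26), and within sample sheet numbers 55 to 68 it was 0.34 (adjusted p = 0.39). Without FPC-LIPA 36, 37 and 39, the livers rich in ribosomal protein counts, it was 0.25 (adjusted p = 0.64), and the part of that richness in the result was not tested. Without FPC-LIPA 31 it was 0.88 with an adjusted p of 0.041, still under 2-fold.

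The remaining 8 genes had 95% intervals within a 2-fold change in either direction. Ces1b had a log2 fold change of 0.45 (SE 0.24), Ces2e 0.35 (SE 0.21), Ces3a -0.38 (SE 0.19) and Ces2a -0.38 (SE 0.20), with adjusted p from 0.14 to 0.22 (edgeR quasi-likelihood test). Ces2e was highest in FPC-LIPA 36 at 527 CPM and FPC-LIPA 37 at 508 CPM, whereas the other FPC-LIPA livers, at 267 to 358 CPM, lay within or near the 240 to 337 CPM of FPC-GFP. Without the 3 livers rich in ribosomal protein counts its log2 fold change was -0.02. Ces1c, Ces1d, Ces1e and Ces1f had values between -0.14 and 0.09, and those of Ces1d and Ces1f changed sign with library size alone. The median over the 10 genes was -0.05, beside 0.04 over all genes. With library size alone these were -0.22 and -0.09.

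**Figure D3:**
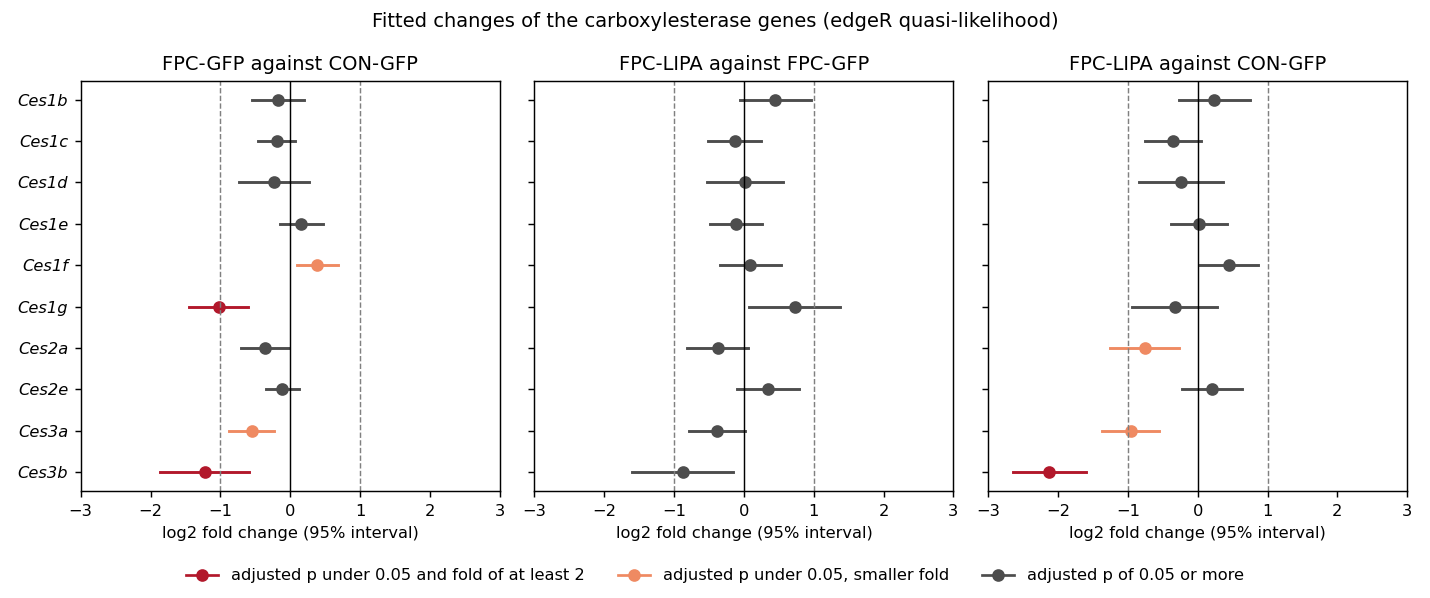
Log2 fold changes of the 10 carboxylesterase genes in the 3 comparisons, with 95% intervals from edgeR's quasi-likelihood fit of 6 against 6 livers and dashed lines at a 2-fold change. Ces1g and Ces3b are called lower in FPC-GFP against CON-GFP, none is called in FPC-LIPA against FPC-GFP, and Ces3b is at -2.12 in FPC-LIPA against CON-GFP.

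FPC-LIPA was also set against CON-GFP, a comparison in which the diet and the vector both differ and which shares its libraries with the other comparisons. Ces3b was 4.36-fold lower in FPC-LIPA and was the 1 gene of the 10 that was called, beside 15.1% of the 14433 genes tested and 3.25% called lower. The 2176 calls over all genes became 1107 of 14914 within sample sheet numbers 55 to 68. At an adjusted p under 0.05 alone 3 of the 10 were lower, Ces3b, Ces3a and Ces2a, beside 22.9% of all genes and 8.2% that were lower. The FPC-LIPA livers did not overlap with the CON-GFP livers in 2 of the 10 genes, Ces3a and Ces3b, beside 11.1% of all genes and 4.84% that were lower without overlap.

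The 6 FPC-LIPA livers, at 54.5 to 132 CPM of Ces3b, all lay below the lowest control liver at 262 CPM. The log2 fold change was -2.12 (SE 0.24, 95% interval -2.64 to -1.61, adjusted p = 5.97e-05, edgeR quasi-likelihood test). It was called in all 20 alternatives, between -2.28 and -2.03. Without the 3 FPC-LIPA livers rich in ribosomal protein counts it was -2.16.

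Ces3a was at 983 to 1396 CPM in FPC-LIPA, with a median of 1131, all below the 1872 to 2965 CPM of CON-GFP. Its log2 fold change of -0.96 (SE 0.19, edgeR quasi-likelihood test, adjusted p = 0.0031) fell just short of 2-fold, and it passed under 8 of the 20 alternatives, among them sample sheet numbers 55 to 68 with -1.02. Ces2a was at 68.5 to 150 CPM in FPC-LIPA, against 133 to 244 CPM in CON-GFP, and FPC-LIPA 34 alone overlapped with the lower control livers. Its log2 fold change was -0.76 (SE 0.23, adjusted p = 0.030). Within sample sheet numbers 55 to 68 it was -0.57 (adjusted p = 0.16), and without the 3 livers rich in ribosomal protein counts it was -0.62 (adjusted p = 0.11).

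Ces1g, called lower in FPC-GFP, was not called here, with -0.33 (SE 0.28, edgeR quasi-likelihood test, adjusted p = 0.40) and an interval from -0.94 to 0.27. Ces1f had 0.45 (SE 0.20, adjusted p = 0.11). The other values ran from -0.35 in Ces1c to 0.24 in Ces1b. The median over the 10 genes was -0.29, beside 0.04 over all genes, and with library size alone these were -0.24 and 0.12.

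The 10 genes together took 0.757% ± 0.101 of all counts in CON-GFP, 0.702% ± 0.085 in FPC-GFP and 0.590% ± 0.076 in FPC-LIPA (SD, n = 6). The groups overlapped in this share, with 0.630% to 0.924%, 0.589% to 0.783% and 0.513% to 0.687%. The Ces3 pair made up most of the difference, with 0.250% ± 0.057, 0.183% ± 0.039 and 0.126% ± 0.035. The 6 Ces1 genes held 0.460% ± 0.086, 0.472% ± 0.060 and 0.418% ± 0.049, and the pair of Ces2 genes between 0.0466% and 0.0475% in each group. These shares carry no TMM scaling, and the ribosomal protein counts of FPC-LIPA 36, 37 and 39 lower all other shares in those livers.

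**Figure D4:**
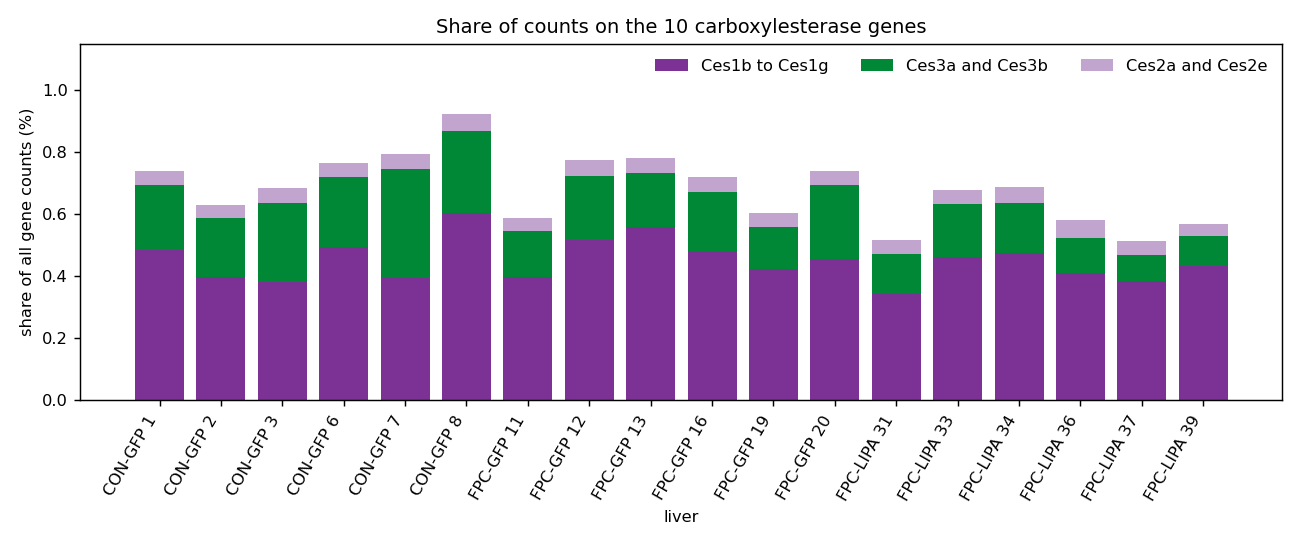
Share of all gene counts, in percent, held by the Ces1, Ces3 and Ces2 genes among the 10 in each of the 18 livers, stacked, with the axis from 0. The Ces3 part shrinks from a mean of 0.250% in CON-GFP to 0.126% in FPC-LIPA, and the Ces2 part stays near 0.047%.

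The ratio within the Ces3 pair moved too. Per kb of exon Ces3b was 17.1% ± 3.4 of Ces3a in CON-GFP, 10.1% ± 4.1 in FPC-GFP and 7.66% ± 3.11 in FPC-LIPA (SD, n = 6). The ranges were 12.4% to 20.9%, 5.09% to 17.1% and 5.47% to 13.8%, so the groups overlapped, and the difference between the 2 genes was not tested. The part of reads common to both genes in this ratio was not tested.

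Correlations of log2 CPM over the 18 livers describe which genes went together; the points share diet groups, libraries and scaling. Ces3a and Ces3b had Pearson's r = 0.89 over the livers and 0.59 after each group's mean was removed. Ces2a went with both, at 0.73 with Ces3a and 0.79 with Ces3b, and 0.40 and 0.57 within groups. Ces1f and Ces3a had -0.57 over the livers and -0.15 within groups. Within groups, the 15 pairs of Ces1 genes had a median r of 0.58, from 0.24 to 0.86, the highest between Ces1c and Ces1e. Ces2a and Ces2e, the pair of the same subfamily, had -0.29 over the livers and -0.13 within groups. Between subfamilies the 28 pairs had a median of 0.30 within groups.

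**Figure D5:**
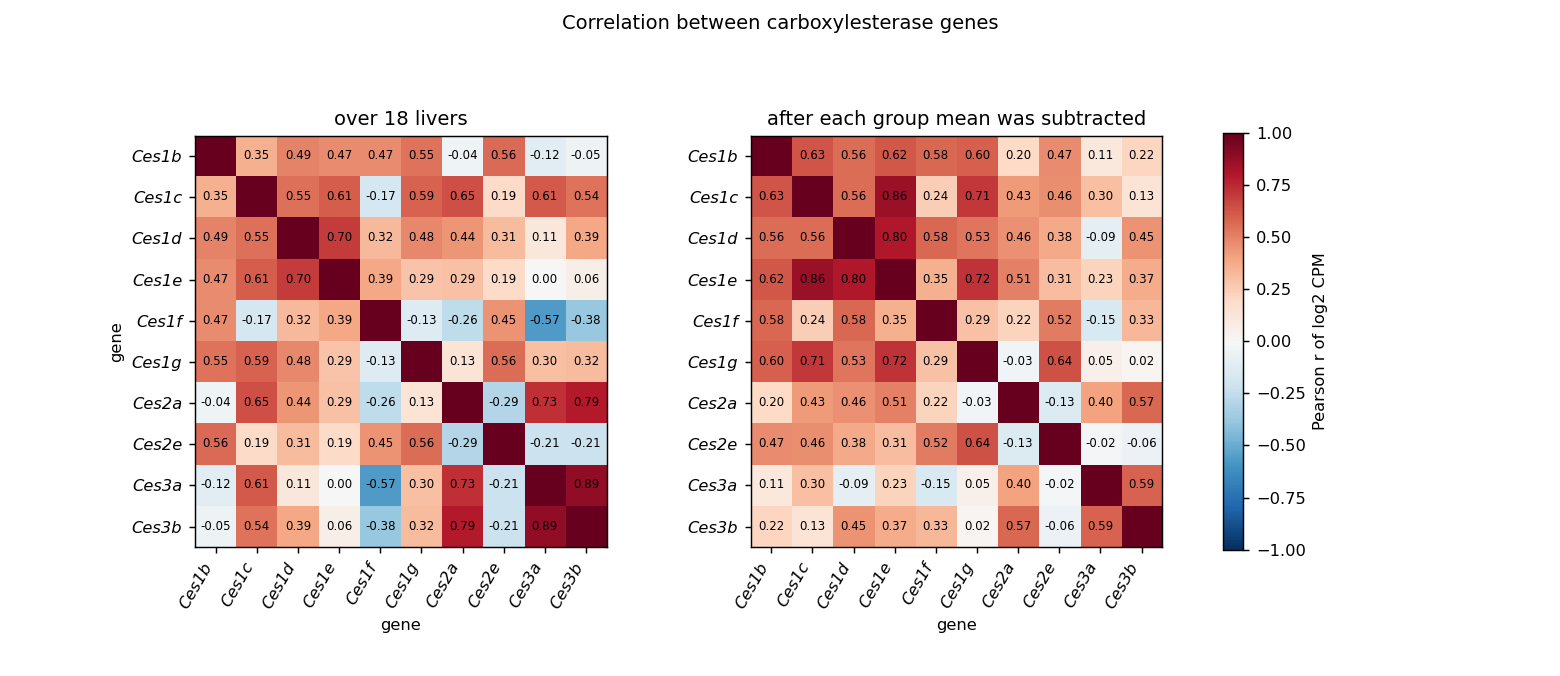
Pearson's r between the log2 CPM of the 10 carboxylesterase genes over 18 livers (left) and after each group's mean was subtracted (right), on a color scale from -1 to 1. The Ces1 block is positive within groups, from 0.24 to 0.86, and Ces3a with Ces3b falls from 0.89 to 0.59.

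The genes did not go with the hepatocyte markers alike. Over the 18 livers, r with the mean of 10 hepatocyte genes was 0.89 for Ces2a, 0.79 for Ces3b, 0.77 for Ces3a and 0.65 for Ces1c, whereas it was 0.23 for Ces1g and -0.56 for Ces1f. Of the hepatocyte genes themselves, 2 of 10 were called lower in the diet comparison, 1 in the LIPA comparison and 4 in FPC-LIPA against CON-GFP. Over all genes tested these were 2.44%, 163 of 14620 and 3.25%. The summed level of the list had medians of 105600, 98500 and 92360 CPM in CON-GFP, FPC-GFP and FPC-LIPA. Of 8 Kupffer cell genes, all 8 were called higher on the FPC diet, beside 681 of all 14307 genes tested. The Clec4f call was lost under 8 of 19 alternatives and the Marco call under 1. The summed level of the list was 142 to 293 CPM in CON-GFP, against 414 to 695 CPM in FPC-GFP. Of 10 monocyte and macrophage genes 6 were called higher in FPC-LIPA against FPC-GFP, beside 1508 of all 14620 genes tested. Their summed levels were 477 to 951 CPM beside 148 to 399 CPM. Of 9 genes of intestine and pancreas, tissues of which the intestine also expresses carboxylesterases, the summed level was 411 to 2285 CPM in FPC-LIPA beside 275 to 414 CPM in FPC-GFP. Fabp2 carried it with 349 to 2208 CPM in FPC-LIPA, but it was also at 231 to 472 CPM in CON-GFP. Fabp2 and Cela1 were called higher with LIPA, with log2 fold changes of 1.95 and 1.66. Each of these calls was lost under 2 of 20 alternatives, where the lowest values were 0.48 and 0.78. Cela1 was at 18.9 to 69.8 CPM in FPC-LIPA, 11.2 to 15.4 in FPC-GFP and 23.9 to 92.8 in CON-GFP. On the FPC diet it was called lower, with -1.92. Of the 3 genes of the list tested there, 2 had an adjusted p under 0.05 lower (edgeR quasi-likelihood test), beside 10.9% of all genes. Cdx2, Prss1 and Amy2a5 had 0 counts in all livers. The part of other cells in the carboxylesterase values was not tested. With the log2 share of ribosomal protein counts, Ces2e had r = 0.72 and Ces1b 0.58, and Ces2a had -0.63.

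The genes whose log2 CPM was most like the mean of the standardized values of the 10 genes, among 12728 genes with at least 1 CPM on average, were Slc27a5 (r = 0.87), Rbp4 (0.86), Sqor (0.84), Hoga1 (0.83) and Ndrg2 (0.82), over 18 livers. Slc27a5 encodes a bile acid and fatty acid CoA ligase and Rbp4 the retinol carrier of plasma. On the FPC diet Rbp4 was lower by -0.47 on the log2 scale (SE 0.13, edgeR quasi-likelihood test, adjusted p = 0.018), and this missed the threshold under 3 of 19 alternatives. This order describes these livers only.

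Of the 10 other Ces genes of the table, 5 were tested in the diet comparison and none was called or had an adjusted p under 0.05 (edgeR quasi-likelihood test). Ces2c, a diglyceride and triglyceride hydrolase of the liver, was at 22.4 to 62.5 CPM in the control livers, 17.6 to 33.8 in FPC-GFP and 11.0 to 25.0 in FPC-LIPA. Its log2 fold change was -0.55 on the diet (adjusted p = 0.095), -0.61 with LIPA (adjusted p = 0.060) and -1.19 between FPC-LIPA and CON-GFP (SE 0.27, adjusted p = 0.0064), where it was called. Without CON-GFP 3, the highest control liver, this was -0.94 and under 2-fold. CON-GFP and FPC-LIPA overlapped in Ces2c by the 1 liver FPC-LIPA 39 at 25.0 CPM.

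Ces4a was low, at 1.46 to 7.02 CPM in CON-GFP against 0 to 0.977 CPM in FPC-LIPA, without overlap. Its log2 fold change between these was -2.94 (SE 0.70, edgeR quasi-likelihood test, adjusted p = 0.0083), and it was called. On the diet alone it was -0.69 (adjusted p = 0.37), and without FPC-GFP 20, at 6.41 CPM the highest FPC-GFP liver, it was -1.37 and passed both thresholds (adjusted p = 0.0498). Within sample sheet numbers 55 to 68 the diet value was -1.39 (adjusted p = 0.11). With LIPA it was -2.27 (adjusted p = 0.058), which passed under 4 of 20 alternatives and was -1.38 (adjusted p = 0.23) within those numbers. Ces2g, at about 50 CPM in each group, had values between -0.16 and -0.03 and passed no test. Ces2h was near 1 CPM and Ces1a and Ces2b below 1 CPM on average, none of them called. Ces1h, Ces2d-ps, Ces2f and Ces5a were too low to be tested, and Ces5a had no count in any liver.

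Other hydrolases of esters, epoxides and lipids did not share one direction. Of 11 further hydrolases of esters or epoxides, 4 had an adjusted p under 0.05 lower on the FPC diet (edgeR quasi-likelihood test), beside 10.9% of all genes. The 1 that was higher, beside 12.9% of all genes, was the epoxide hydrolase Ephx1. Pon1, the paraoxonase of high density lipoprotein, had -0.60 (adjusted p = 0.0079), while Ephx1, microsomal epoxide hydrolase, was 1.13 higher on the log2 scale (adjusted p = 0.00022). Of 15 lipid hydrolases tested, 4 were higher and 2 lower at this threshold. Lpl, lipoprotein lipase, rose by 2.11 on the log2 scale on the diet (adjusted p = 0.00030), and Aadac, an esterase of the same compartment as the carboxylesterases, fell by 0.49 on the log2 scale (adjusted p = 0.0034). Of 10 genes of lipoprotein assembly, among them Apob and Apoe, 1 had an adjusted p under 0.05 on the diet, Apoc3, which was lower. With LIPA 1 was lower at this threshold, Surf4 with -0.59 (adjusted p = 0.037, edgeR quasi-likelihood test), beside 1004 of all 14620 genes. The 1 that was higher, beside 2098, was Sar1b, at 116 to 1186 CPM in FPC-LIPA, which also passed the fold minimum. The Sar1b call was lost under 10 of 20 alternatives, with a log2 fold change of 0.11 without FPC-LIPA 36, 37 and 39.

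Among 15 liver regulators, 4 had an adjusted p under 0.05 lower and 1 higher on the FPC diet (edgeR quasi-likelihood test), and 5 were lower with LIPA. Over all genes these were 10.9% and 12.9% on the diet, and 1004 of 14620 lower with LIPA. Nr1i3, the receptor CAR that governs many drug-handling genes, was at 483 ± 130 CPM in CON-GFP against 299 ± 64 CPM in FPC-GFP (SD, n = 6), a log2 fold change of -0.70 (adjusted p = 0.014). Nr1i3 and, among the hydrolases, Aadac and Pon1 each missed the threshold under 1 of 19 alternatives on the diet. Hnf4a, a master factor of hepatocytes, had -0.15 on the diet (adjusted p = 0.55) and -0.98 with LIPA (adjusted p = 0.042), and the LIPA value missed the threshold under 13 of 20 alternatives. Of 9 targets of CAR and PXR, none was called on the diet, where 7 of 9 values were positive. In the LIPA comparison 1508 of all 14620 genes were called higher and 163 lower. Of the 9 targets 2 were called higher there, Cyp3a11 with 1.41 (adjusted p = 0.020) and Cyp2c55, and Cyp2c29 was called lower (adjusted p = 0.048). The calls were lost under 2, 12 and 14 of 20 alternatives for Cyp3a11, Cyp2c55 and Cyp2c29, and all 3 without FPC-LIPA 36, 37 and 39 as well as within sample sheet numbers 55 to 68. Of 10 PPARα targets 2 were called higher on the diet, Ehhadh with 1.29 and Fgf21 with 1.38, beside 681 of all 14307 genes. Of 7 NRF2 targets tested 6 had an adjusted p under 0.05, all higher, on the diet, beside 12.9% of all genes. Of 8 genes of retinoid handling, 1 was lower on the diet at this threshold, Rbp4, beside 10.9% of all genes.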

How the data were processed

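The 18 libraries, 1 for each mouse liver, were grouped by their sample labels. Per the study's methods and processing notes, the authors trimmed paired reads of 150 bases with Trimmomatic, mapped them with Hisat2 2.1.0 to GRCm38 (mm10) and counted them per gene with Subread's Feature Counts. What they deposited are raw counts. The kit is named as unstranded or stranded, and strand setting, annotation version and the handling of reads with several matches are not given in the sources used here. Another 5 columns were not used here.

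Low genes were dropped by filterByExpr (edgeR 4.0.16, R 4.3.3), and the rest were scaled by TMM and tested with glmQLFit and glmQLFTest on the 12 libraries of each comparison, with Benjamini-Hochberg adjustment over all genes tested. A call needed a fold of 2 or more and an adjusted p under 0.05. The SE is the log2 fold change divided by the square root of F, and intervals cover 95%. CPM were scaled by TMM over all 18 libraries, with a prior count of 2 for log2 CPM. Exon lengths came from GENCODE M21. Coding sequences were aligned with MAFFT 7.526. The fits were tried on simulated counts with planted changes larger than the fold minimum. This does not check calls near that minimum, the scaling or the sample sheet numbers. Errors are over mice, since counting error is small at these depths.

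The 10 genes and the other lists were chosen with earlier results of these data known. Named genes were all Ces genes; the 2 most abundant and up to 4 with the largest called change of each other list, of which some are shown; and the 5 most like the 10 genes' mean, of which Sqor, Hoga1 and Ndrg2 are named only. Apoc3, Surf4, Cdx2, Prss1 and Amy2a5 were chosen after their values were seen. Alternatives were DESeq2 size factors, library size alone, the DESeq2 1.42.0 Wald test, no filter, all 18 libraries in 1 fit, sample sheet numbers 55 to 68, removal of the trend on gene length, other thresholds, each library left out in turn, and FPC-LIPA 36, 37 and 39 left out together.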

Additional observations from a re-analysis of the deposited data

Results flagged for a closer look

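In 3 of 30 sets of 6 livers, 1 liver stood far from the other 5 by the gap to its nearest neighbor relative to the whole range, where chance marks about 1 in 20. Ces1g in FPC-LIPA 37 was at 517.119 CPM, with the next liver at 256.728 CPM and the lowest at 118.005 CPM; this library has a sample sheet number outside 55 to 68 and is rich in ribosomal protein counts. Ces1f in CON-GFP 8 was at 580.63 CPM, above the next control liver at 461.544 CPM and the lowest at 392.945 CPM. Ces1e in FPC-LIPA 31 was at 180.239 CPM, below the next at 253.196 CPM and the highest at 295.576 CPM. FPC-LIPA 31 was also the lowest of its group in Ces1b, Ces1c, Ces1d and Ces1g.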

How the results depend on the processing

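The count of the 10 genes called on the FPC diet, 2, was 1 with library size alone and within sample sheet numbers 55 to 68, where Ces3b remained, and 4 with no fold minimum. With each library left out it was 1 to 2, with 1 without CON-GFP 2, CON-GFP 8, FPC-GFP 11, FPC-GFP 19 or FPC-GFP 20, where Ces1g was lost. In the LIPA comparison it was 0 to 1 with each library left out, with Ces3b without FPC-GFP 19, and 0 otherwise. Between FPC-LIPA and CON-GFP the count of 1 became 2, with Ces3a, with no filter, within sample sheet numbers 55 to 68 and after removal of the length trend, and 3 with no fold minimum. With each library left out it was 1 to 2, with 2 without CON-GFP 1, 2 or 6 or FPC-LIPA 33 or 34. The causes were not tested. No paired analysis was possible because the groups share no replicate numbers.

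Small values changed sign. On the diet, library size alone gave 0.0067 for Ces1b, 0.0024 for Ces1c, 0.081 for Ces2e, 0.094 for Ces2g and 0.031 for Ces2h. With LIPA, Ces1d gave -0.17 with library size alone, -0.046 with no filter, -0.042 within numbers 55 to 68, -0.076 after removal of the length trend and -0.33 without FPC-LIPA 36, 37 and 39, and Ces1f gave -0.097 with library size alone. Without those 3 livers Ces1f gave -0.25 and Ces2e -0.024. Between FPC-LIPA and CON-GFP, Ces1e gave -0.028 with no filter, -0.090 after removal of the length trend and -0.012 without those livers, where Ces1b gave -0.13, Ces2e -0.14 and Ces2h 0.33. Ces2h gave 0.074 with library size alone and 0.015 with all 18 libraries in 1 fit. With each library left out, Ces1d ran from -0.15 to 0.15, Ces1f from -0.025 to 0.17, Ces2g from -0.086 to 0.030 and Ces2h from -0.034 to 0.26 with LIPA, Ces2h from -0.35 to 0.47 on the diet, and Ces1e from -0.051 to 0.12 and Ces2h from -0.26 to 0.56 between FPC-LIPA and CON-GFP. Of 590 refitted values of the 10 genes, 545 kept their direction and their side of the thresholds. Depth does not limit the 10 genes, each with at least 820 counts in every liver, but leaves Ces1a, Ces2b and Ces4a with few.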
